A study of Mus musculus with 12 samples.

Results

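The G1 cyclins, the inhibitors of their kinases and E2f1 were read by 22 of the 45101 probe sets on Affymetrix Mouse 430 2.0 arrays. They were chosen by gene, by a rule that uses no measured value, but with earlier results of these data known: Ccne1 (2 probe sets), Ccne2 (1), Ccnd1 (3), Ccnd2 (7), Ccnd3 (1), Cdkn1a (2), Cdkn1b (2), Cdkn1c (1), Cdkn2c (1) and E2f1 (2), or 10 genes in all. The arrays held 3 groups of 4 male mice or tissues at 7 to 11 months of age. Non-transgenic lung came from FVB mice, an inbred strain. Adjacent normal lung and lung tumor (adenocarcinoma) came from FVB mice with a transgene in which the human surfactant protein C promoter drives wild-type human cyclin E. This promoter is active in type II cells of the alveolus, so that the transgene is not a model of all lung cells. Each value is a log2 signal of a probe set, on which a difference of 1 is a 2-fold change. Differences are read between groups within a probe set, not between probe sets. For Cdkn1b, the change between groups of the difference of its 2 probe sets is also given.

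Cyclins of the D type, encoded by Ccnd1, Ccnd2 and Ccnd3, bind CDK4 and CDK6 early in G1 and start the phosphorylation of the retinoblastoma protein. This frees E2F factors such as E2F1, which switch on genes of S phase, the E-type cyclins Ccne1 and Ccne2 among them. Cyclin E then activates CDK2. Inhibitors of the INK4 family, such as p18 (Cdkn2c), bind CDK4 and CDK6, while those of the Cip/Kip family, p21 (Cdkn1a), p27 (Cdkn1b) and p57 (Cdkn1c), bind complexes of cyclin and CDK. The mice of this model express extra cyclin E from the transgene, and the question put to the arrays here was how the endogenous genes of this step stood in the tumors, in the lung beside them and in lung without the transgene.

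Probe sets were tested where 4 or more arrays exceeded 4.18, the median over the table, and 20 of the 22 met this. The exceptions were Ccne2 1422535_AT and Ccnd2 1416124_AT. All groups entered a single limma fit, and a difference passed at a Benjamini-Hochberg adjusted p under 0.05 over all 23538 probe sets tested. Tissue was measured in bulk, so that fewer cells of a type and less RNA per cell cannot be told apart. Of the arrays, tumor 2 and adjacent normal lung 3 stood apart. The mean Euclidean distance of tumor 2 to its own group was 153.9, against 96.7 to 102.9 for the other tumors. That of adjacent normal lung 3 was 104.7, against 66.2 to 69.8, and in 833 probe sets this array lay over 1 log2 unit below the 11 others. RNA integrity, read as the 3′ signal of housekeeping control probes less their 5′ signal, was 0.30 to 0.61 in tumors (highest in tumor 2) and 0.35 to 0.57 in the lungs. Its part in the results was not tested. Without tumor 2 and adjacent normal lung 3, the counts of the next paragraph became 10 lower and 4 higher for adjacent normal lung, where 22.9% and 24.7% of all probe sets tested passed. For non-transgenic lung they became 11 lower and 4 higher, against 24.6% and 27.7% of all. Markers of lung cell types were not analysed here.

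Most of these genes that moved in tumors were lower there. Ccnd2 and Ccnd3, 1 probe set of Ccnd1, Cdkn1c and Cdkn2c fell against both kinds of normal lung, while 1 probe set each of Cdkn1a and Cdkn1b rose against both. The other Cdkn1a probe set rose and the other Cdkn1b probe set fell against non-transgenic lung only, a contrast between the comparisons that was not tested. No probe set of Ccne1 or E2f1 passed the test in either comparison, and Ccne2 was not tested. Of the 20 tested, 10 were lower and 2 higher in tumors than in adjacent normal lung, where 15.6% of all probe sets tested were lower and 13.2% higher. Against non-transgenic lung 11 were lower and 3 higher, against 16.9% and 15.6% of all. With the unequal-variance test named in the methods, after adjustment, most calls were lost. Only Ccnd3 passed against adjacent normal lung (1 lower and 0 higher, against 1.92% and 0.595% of all). Against non-transgenic lung Ccnd3, Ccnd2 1416123_AT and Ccnd2 1448229_S_AT passed as lower and Cdkn1a 1424638_AT as higher (3 lower and 1 higher, against 4.26% and 2.06% of all). The filter admits some probe sets only through the group in which they are bright. With no filter the counts over all 22 were again 10 lower and 2 higher, where 8.74% and 6.91% of all 45037 probe sets passed, and 11 lower and 3 higher, where 9.47% and 8.93% passed. Of the 10 and the 11, 6 are probe sets of Ccnd2, which are not separate genes. Across the 3 groups, 14 of the 20 passed limma's F-test, against 28.6% of all tested. In 9 of the 22 the 4 tumors all lay below all 8 lungs, and in 1 all above, where 6.59% and 4.18% of all probe sets did so. The 14 and the 9 again include the 6 probe sets of Ccnd2.

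Among the tumors, tumor 2 lay nearest to the lungs in Ccnd3, Cdkn2c, Cdkn1a and the Ccnd2 probe sets tested. This nearness was not particular to these genes, since its mean Euclidean distance to the 8 lungs was 112, against 169.3 to 177.4 for the other tumors. Tumor 2 was also the lowest of all 12 arrays in 2 Ccnd1 probe sets.

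**Figure D1:**
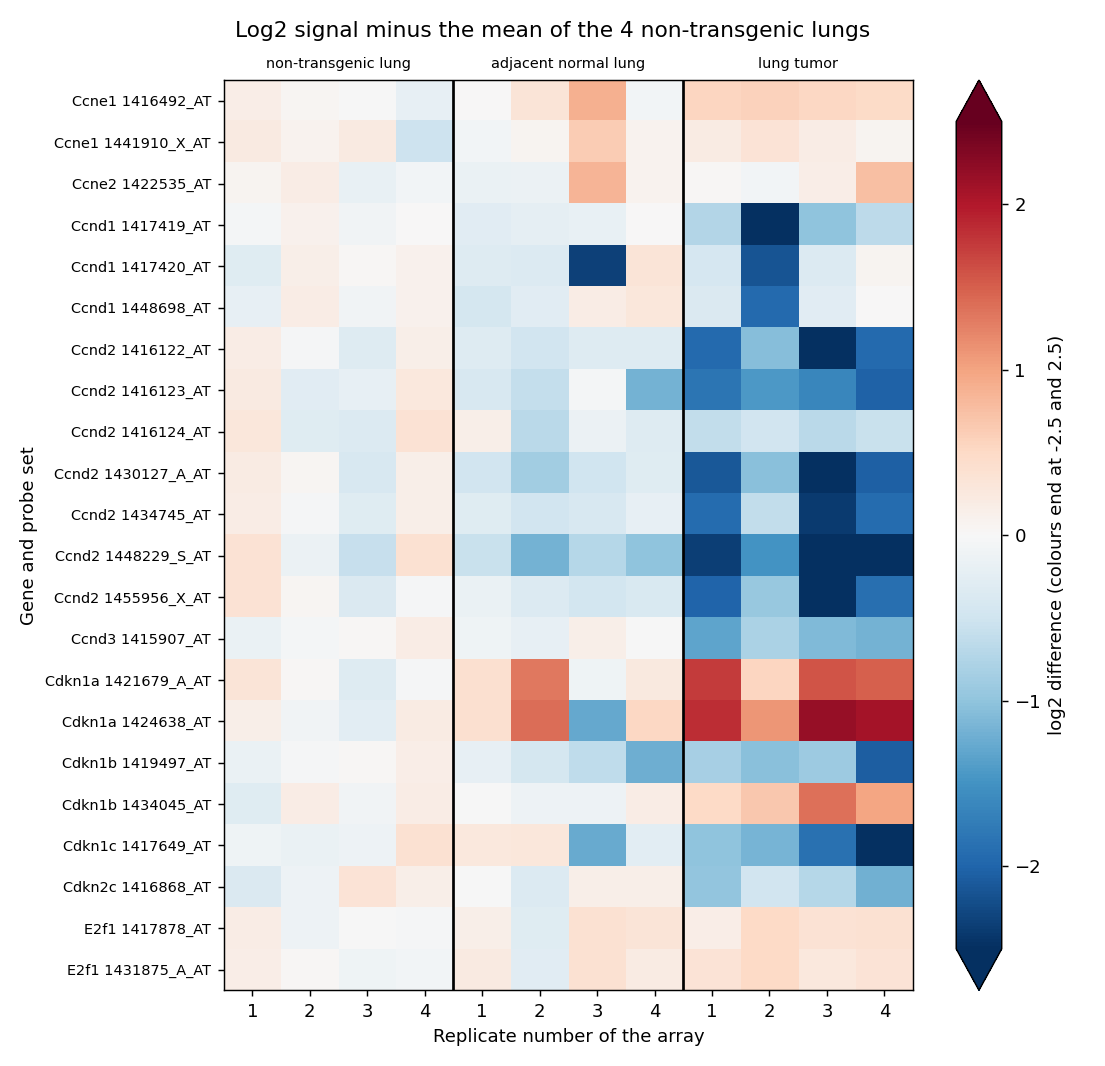
Log2 signal of the 22 probe sets (rows) on the 12 arrays (columns, by group and replicate number) minus the mean of the 4 non-transgenic lungs, with red for higher and blue for lower. The Ccnd2 rows are blue in all 4 tumors, the Cdkn1a rows red, tumor 2 is strongly blue in the 3 Ccnd1 rows, and adjacent normal lung 3 is so in Ccnd1 1417420_AT.

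**Figure D2:**
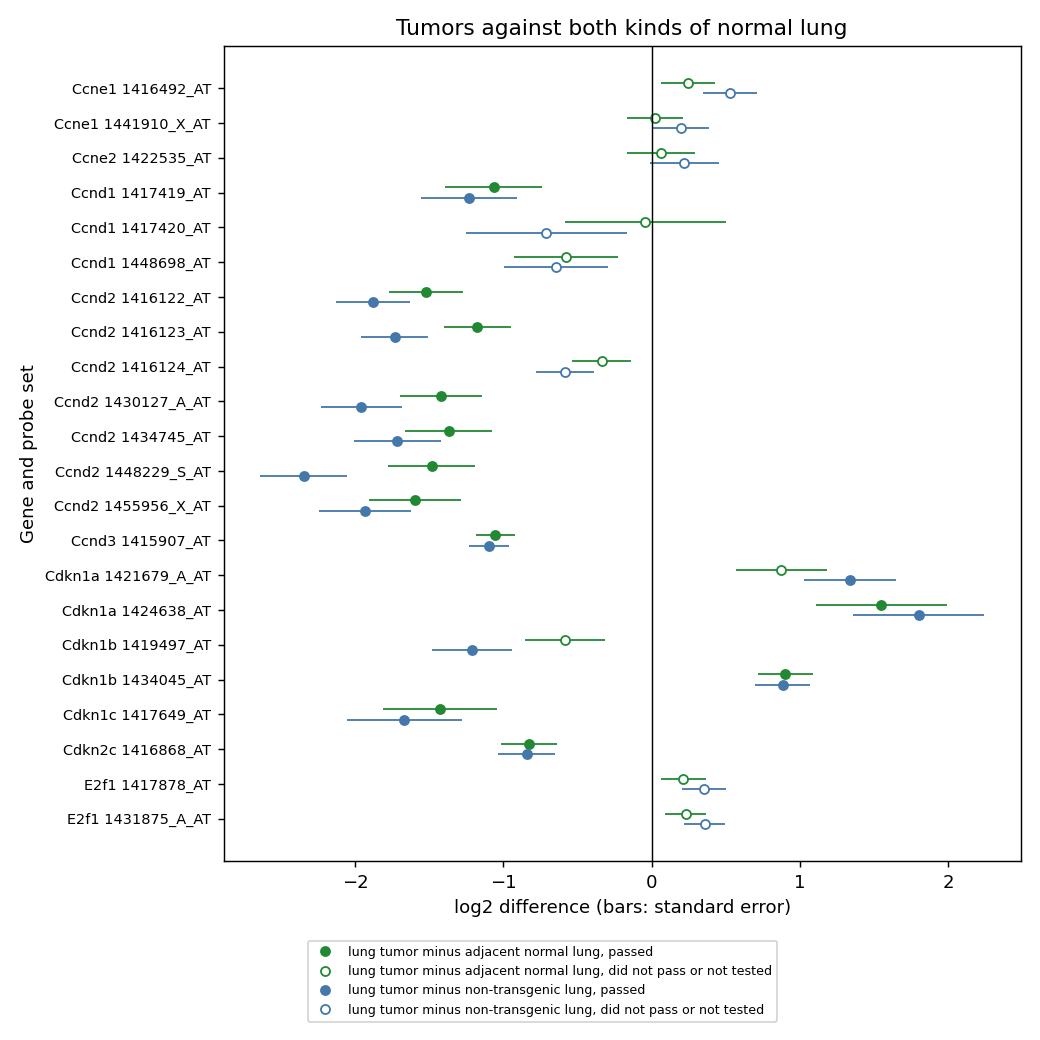
Log2 difference of lung tumor from adjacent normal lung (green) and from non-transgenic lung (blue) for each of the 22 probe sets, with standard errors as bars. Filled points passed limma's adjusted threshold and open points did not or were not tested, and the Cdkn1b probe sets lie on opposite sides of 0.

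The probe sets of Ccne1, the gene of cyclin E1, were dim in every group. Ccne1 1416492_AT was at 3.98, 3.86, 3.79 and 3.59 in non-transgenic lungs 1 to 4, at 3.82, 4.12, 4.69 and 3.73 in adjacent normal lungs and at 4.35, 4.39, 4.32 and 4.28 in tumors. The tumors all lay above the non-transgenic lungs, and adjacent normal lung 3 lay above the tumors. Tumors exceeded non-transgenic lung by 0.53 on the log2 scale (standard error 0.19, limma adjusted p = 0.0504) and the adjacent lung by 0.24 (standard error 0.19, limma adjusted p = 0.355). Neither passed. The probe set met the filter mainly through the tumors, since 4 tumors, 1 adjacent lung and 0 non-transgenic lungs exceeded 4.18, and with no filter the adjusted p of the first was 0.0646 (limma). The p-values that follow share this limit. The first difference was 0.53 without adjacent normal lung 3 (limma adjusted p = 0.0089), since the spread is shared by all groups. Against adjacent normal lung it was 0.44 without that array (limma adjusted p = 0.0337). Under quantile normalization and median centring the difference from non-transgenic lung passed as well, at 0.59 and 0.60 (limma adjusted p = 0.0195 and 0.017). The values are close to the median over the table, and no detection call says whether they exceed background.

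The other Ccne1 probe set, 1441910_X_AT, was at 4.40, 4.26, 4.40 and 3.65 in non-transgenic lungs, at 4.10, 4.24, 4.82 and 4.26 in adjacent normal lungs and at 4.38, 4.51, 4.36 and 4.25 in tumors. Its ending marks probes that can also bind other transcripts. The groups overlapped, and the difference of tumors was 0.20 from non-transgenic lung (standard error 0.20, limma adjusted p = 0.469). The single Ccne2 probe set, for cyclin E2, stayed under the table's median on all 12 arrays, from 2.40 to 3.44, and was not tested in the fit. These probe sets were designed on mouse transcripts, and whether they read the human cyclin E of the transgene was not tested. Their level in transgenic tissue is therefore not a measure of the transgene, and it cannot be credited to the mouse genes alone.

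Ccnd2, which encodes cyclin D2, fell in each of the 6 probe sets that could be tested. Ccnd2 1416122_AT was at 9.48, 9.26, 8.96 and 9.43 in non-transgenic lungs 1 to 4, at 8.95, 8.81, 8.97 and 8.95 in adjacent normal lungs and at 7.34, 8.23, 6.70 and 7.34 in tumors. All tumors lay below all 8 lungs, with tumor 2 nearest to them. The tumors were 2.87-fold below adjacent normal lung (log2 difference -1.52, standard error 0.26, limma adjusted p = 0.00143) and 3.68-fold below non-transgenic lung (log2 difference -1.88, standard error 0.26, limma adjusted p = 0.00035). In tumors 1 to 4 the difference from the adjacent normal lung of the same number was -1.61, -0.58, -2.27 and -1.62.

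The other Ccnd2 probe sets moved the same way. Ccnd2 1448229_S_AT was at 7.26, 6.75, 6.32 and 7.29 in non-transgenic lungs, at 6.35, 5.71, 6.19 and 5.90 in adjacent normal lungs and at 4.55, 5.41, 4.13 and 4.14 in tumors. The tumors did not overlap with any lung. Against non-transgenic lung the fall was 5.09-fold (log2 difference -2.35, standard error 0.30), a size that is uncertain because 2 of the 4 tumors lay under the median of 4.18, and over the 6 probe sets tested it ranged from 3.28-fold to 5.09-fold (limma adjusted p = 0.000243 to 0.00154). Against adjacent normal lung it ranged from 2.26-fold to 3.02-fold (limma adjusted p = 0.00143 to 0.00621). The top of this range is from Ccnd2 1455956_X_AT, whose ending marks probes that can also bind other transcripts. All 6 passed in each of the 12 fits that left out 1 array. In 1430127_A_AT the tumors were at 5.59 to 7.16 and all lungs at 7.35 to 8.42, in 1434745_AT at 7.09 to 8.87 and 9.01 to 9.67, and in 1455956_X_AT at 6.15 to 8.09 and 8.59 to 9.39, again without overlap. Ccnd2 1416123_AT was among them although its tumor arrays, at 2.54 to 3.12, lay under the table's median, so that the size of its fall is uncertain and it entered the test through the lungs. Ccnd2 1416124_AT was at 2.18 to 3.22 in all lungs and at 2.19 to 2.37 in tumors and was too dim for the test.

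Cyclin D3 was read by the single probe set Ccnd3 1415907_AT. It was at 8.17, 8.28, 8.37 and 8.52 in non-transgenic lungs, at 8.23, 8.12, 8.47 and 8.33 in adjacent normal lungs and at 7.02, 7.54, 7.24 and 7.15 in tumors. The lungs of both kinds lay together and the tumors below them without overlap. The fall was 2.07-fold against adjacent normal lung (log2 difference -1.05, standard error 0.14, limma adjusted p = 0.000385) and 2.14-fold against non-transgenic lung (log2 difference -1.10, standard error 0.14, limma adjusted p = 0.000253). In tumors 1 to 4 the difference from the adjacent normal lung of the same number was -1.21, -0.58, -1.23 and -1.18.

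The probe sets of Ccnd1, the gene of cyclin D1, did not give a single answer. Ccnd1 1417419_AT was at 9.13, 9.29, 9.09 and 9.20 in non-transgenic lungs, at 8.90, 8.95, 9.00 and 9.19 in adjacent normal lungs and at 8.45, 6.64, 8.18 and 8.52 in tumors. Every tumor lay below every lung, and tumor 2 lay far below the other tumors. The fall was 2.09-fold against adjacent normal lung (log2 difference -1.07, standard error 0.33, limma adjusted p = 0.0313) and 2.35-fold against non-transgenic lung (log2 difference -1.23, standard error 0.33, limma adjusted p = 0.0148). Without tumor 2 these differences were -0.63 and -0.80 (limma adjusted p = 0.00169 and 0.000315), so that tumor 2 set much of their size. The first did not pass when any 1 adjacent normal lung, or tumor 3, was left out (limma adjusted p = 0.0514 to 0.0712), nor in a fit of the 8 arrays of these 2 groups, without pairs (limma adjusted p = 0.086) or with tumor and lung of the same number paired (limma adjusted p = 0.0872).

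Ccnd1 1448698_AT was at 8.96, 7.37, 9.03 and 9.33 in tumors 1 to 4 and at 8.87 to 9.59 in all 8 lungs. Here only tumor 2 lay outside the lungs. Ccnd1 1417420_AT was at 8.49, 6.75, 8.56 and 8.97 in tumors, at 8.57, 8.57, 6.57 and 9.22 in adjacent normal lungs and at 8.60 to 9.05 in non-transgenic lungs. Tumor 2 was again low, and adjacent normal lung 3 was low as well in this probe set alone of the 3. Neither probe set passed in either comparison (limma adjusted p = 0.184 to 0.962). A low Ccnd1 signal in tumor 2 was thus common to the 3 probe sets, whereas the other 3 tumors lay below the lungs only in 1417419_AT.

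**Figure D3:**
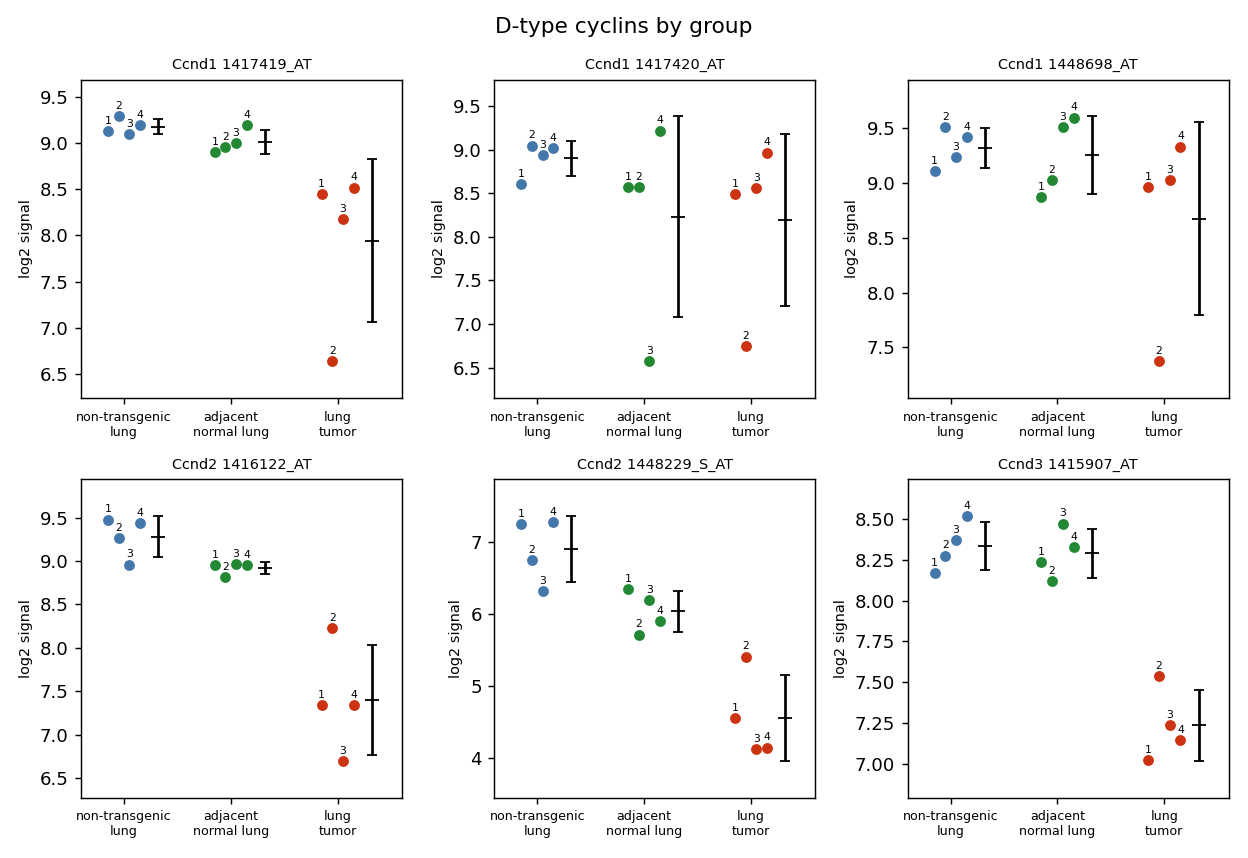
Log2 signal (vertical axes) of the 3 Ccnd1 probe sets, 2 of the Ccnd2 probe sets and the Ccnd3 probe set in non-transgenic lung (blue), adjacent normal lung (green) and lung tumor (red), each point an array with its replicate number and the bars the mean and SD. Tumor 2 is the lowest tumor in each Ccnd1 panel and the highest in the Ccnd2 and Ccnd3 panels.

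Cdkn1a encodes p21, the inhibitor best known as a target of the tumor suppressor p53. RefSeq gives 2 starts for this gene in GRCm38.p6, and the 300 bases around each (250 before and 50 after the start, plus strand) are shown because both Cdkn1a probe sets rose against non-transgenic lung. The first lies at chr17:29090729-29091028 and the second at chr17:29093519-29093818. Capitals mark the TATA motif TATAA and the GC box motif GGGCGG, on either strand, and the p53 element.
Cdkn1a, first start: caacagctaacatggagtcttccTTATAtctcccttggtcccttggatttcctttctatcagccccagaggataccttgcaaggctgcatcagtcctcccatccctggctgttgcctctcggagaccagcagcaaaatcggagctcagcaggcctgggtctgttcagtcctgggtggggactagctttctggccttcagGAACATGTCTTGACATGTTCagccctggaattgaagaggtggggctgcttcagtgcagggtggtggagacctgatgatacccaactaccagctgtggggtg
Cdkn1a, second start: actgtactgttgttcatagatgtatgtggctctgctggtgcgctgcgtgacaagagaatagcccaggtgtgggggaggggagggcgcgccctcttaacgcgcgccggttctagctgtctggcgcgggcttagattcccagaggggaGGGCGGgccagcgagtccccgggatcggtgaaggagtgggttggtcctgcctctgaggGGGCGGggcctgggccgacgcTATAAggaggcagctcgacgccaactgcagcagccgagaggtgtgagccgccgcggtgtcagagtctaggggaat
The p53 element was searched as a pair of adjoining copies of the p53 consensus, with at most 1 mismatch outside its fixed C and G. It begins 51 bases before the first start and was found in 22 of the 32851 RefSeq windows of this length (0.067%). TATAA begins 25 bases before the second start and GGGCGG 104 and 46 bases before it. TATAA was present in 24.9% and GGGCGG in 35.7% of all windows. These 3 motifs were chosen after the sequences had been seen, and a match describes the letters only. RefSeq windows were at hand for 6 of the 10 genes (Ccne1, Ccnd3, Cdkn1a, Cdkn1b, Cdkn2c and E2f1), 9 windows in all. Of E2F sites, the forms TTTCCCGC and TTTGGCGC and TTTGCCGC were found on either strand in 0 of these 9, against 1.07%, 0.514% and 0.441% of all windows. Other forms were not searched. With shares this low, 0 of 9 windows says nothing about whether these genes have E2F sites.

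Cdkn1a 1424638_AT was at 8.44, 8.21, 8.03 and 8.49 in non-transgenic lungs, at 8.69, 9.68, 7.01 and 8.80 in adjacent normal lungs and at 10.14, 9.40, 10.47 and 10.38 in tumors. The tumors lay above all non-transgenic lungs, but adjacent normal lung 2 lay above tumor 2. The rise was 3.49-fold against non-transgenic lung (log2 difference 1.80, standard error 0.45, limma adjusted p = 0.0102) and 2.93-fold against adjacent normal lung (log2 difference 1.55, standard error 0.45, limma adjusted p = 0.023). The difference of a tumor from the adjacent normal lung of the same number was 1.45, -0.28, 3.46 and 1.58, a rise in 3 of 4. In a fit of these 8 arrays alone the difference no longer passed, unpaired (limma adjusted p = 0.0684) or with the pairs (limma adjusted p = 0.119). It also missed the threshold without tumor 1, 3 or 4 (limma adjusted p = 0.0522 to 0.0663). Adjacent normal lung 3, at 7.01, was over 1 log2 unit below all other arrays, and without it the difference from adjacent normal lung was 1.04 (limma adjusted p = 0.0249).

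The other Cdkn1a probe set, 1421679_A_AT, was at 8.16, 7.85, 7.52 and 7.81 in non-transgenic lungs, at 8.23, 9.14, 7.73 and 8.07 in adjacent normal lungs and at 9.57, 8.38, 9.41 and 9.33 in tumors. Tumor 2 was again the lowest tumor and adjacent normal lung 2 the highest lung. The rise against non-transgenic lung was 2.53-fold (log2 difference 1.34, standard error 0.31, limma adjusted p = 0.00785). The difference from adjacent normal lung was 0.88 (standard error 0.31, limma adjusted p = 0.0554) and did not pass. It passed without tumor 2 (1.14, limma adjusted p = 0.00532) and without adjacent normal lung 2 (1.16, limma adjusted p = 0.0143). The rise of Cdkn1a was therefore firmer against non-transgenic lung, where both probe sets passed in all 12 fits with 1 array left out.

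The probe sets of Cdkn1b, the gene of p27, moved in opposite directions. Cdkn1b 1434045_AT was at 7.16, 7.64, 7.37 and 7.63 in non-transgenic lungs, at 7.44, 7.33, 7.33 and 7.64 in adjacent normal lungs and at 7.95, 8.12, 8.84 and 8.44 in tumors. It was the only probe set of the 22 in which all tumors lay above all 8 lungs. The rise was 1.87-fold against adjacent normal lung (log2 difference 0.90, standard error 0.19, limma adjusted p = 0.00552) and 1.85-fold against non-transgenic lung (log2 difference 0.89, standard error 0.19, limma adjusted p = 0.00528), and it passed in all 12 fits with 1 array left out. Cdkn1b 1419497_AT was at 5.06, 5.18, 5.25 and 5.38 in non-transgenic lungs, at 5.01, 4.77, 4.57 and 4.00 in adjacent normal lungs and at 4.40, 4.16, 4.31 and 3.16 in tumors. Non-transgenic lungs were highest without overlap, and adjacent normal lung 4 lay among the tumors. The fall was 2.31-fold against non-transgenic lung (log2 difference -1.21, standard error 0.27, limma adjusted p = 0.00655), while the difference of -0.58 from adjacent normal lung did not pass (standard error 0.27, limma adjusted p = 0.13).

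Within each array, the signal of 1434045_AT minus that of 1419497_AT was 2.10 to 2.46 in non-transgenic lungs, 2.43 to 3.64 in adjacent normal lungs and 3.55 to 5.28 in tumors. Only the change of this difference between groups can be read, since probe sets differ in their scale. It grew by 2.09 from non-transgenic lung to tumor (two-sided exact permutation test over 70 splits of the arrays, p = 0.0286, the smallest that 4 arrays against 4 allow). It grew by 1.49 from adjacent normal lung to tumor (two-sided exact permutation test, p = 0.0571) and by 0.61 from non-transgenic to adjacent normal lung (two-sided exact permutation test, p = 0.0571). These splits treat the arrays as independent and do not use the replicate numbers. In numbers 1 to 4 the difference was 2.43, 2.55, 2.76 and 3.64 in adjacent normal lung and 3.55, 3.96, 4.52 and 5.28 in tumors. The permutation test was chosen after the opposite directions had been seen. Some arrays of 1419497_AT lay under the table's median, and which transcripts or ends of Cdkn1b the probe sets read was not analysed here.

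Cdkn1c, an imprinted gene that encodes p57, fell. Cdkn1c 1417649_AT was at 7.84, 7.78, 7.82 and 8.33 in non-transgenic lungs, at 8.21, 8.23, 6.68 and 7.68 in adjacent normal lungs and at 6.94, 6.79, 6.07 and 5.30 in tumors. The tumors lay below all non-transgenic lungs, and adjacent normal lung 3 lay among the tumors. The fall was 3.18-fold against non-transgenic lung (log2 difference -1.67, standard error 0.39, limma adjusted p = 0.00776) and 2.69-fold against adjacent normal lung (log2 difference -1.43, standard error 0.39, limma adjusted p = 0.0186). Tumors 1 to 4 differed from the adjacent lung of the same number by -1.27, -1.44, -0.61 and -2.38. The second fall did not pass without adjacent normal lung 1 or 2 or without tumor 3 or 4 (limma adjusted p = 0.0512 to 0.0575), nor in the 8 arrays alone (limma adjusted p = 0.0572), although there it passed with the pairs (limma adjusted p = 0.0347).

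Cdkn2c, the gene of the INK4 inhibitor p18, fell by a smaller amount. Cdkn2c 1416868_AT was at 7.11, 7.34, 7.80 and 7.60 in non-transgenic lungs, at 7.45, 7.12, 7.60 and 7.61 in adjacent normal lungs and at 6.48, 6.98, 6.76 and 6.26 in tumors. All tumors lay below all lungs, tumor 2 by the narrowest margin. The fall was 1.77-fold against adjacent normal lung (log2 difference -0.83, standard error 0.20, limma adjusted p = 0.00976) and 1.79-fold against non-transgenic lung (log2 difference -0.84, standard error 0.20, limma adjusted p = 0.00773), and both passed in all 12 fits with 1 array left out. With tumor and lung of the same number paired in a fit of 8 arrays the first missed the threshold (limma adjusted p = 0.0661), and unpaired it passed (limma adjusted p = 0.0234).

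**Figure D4:**
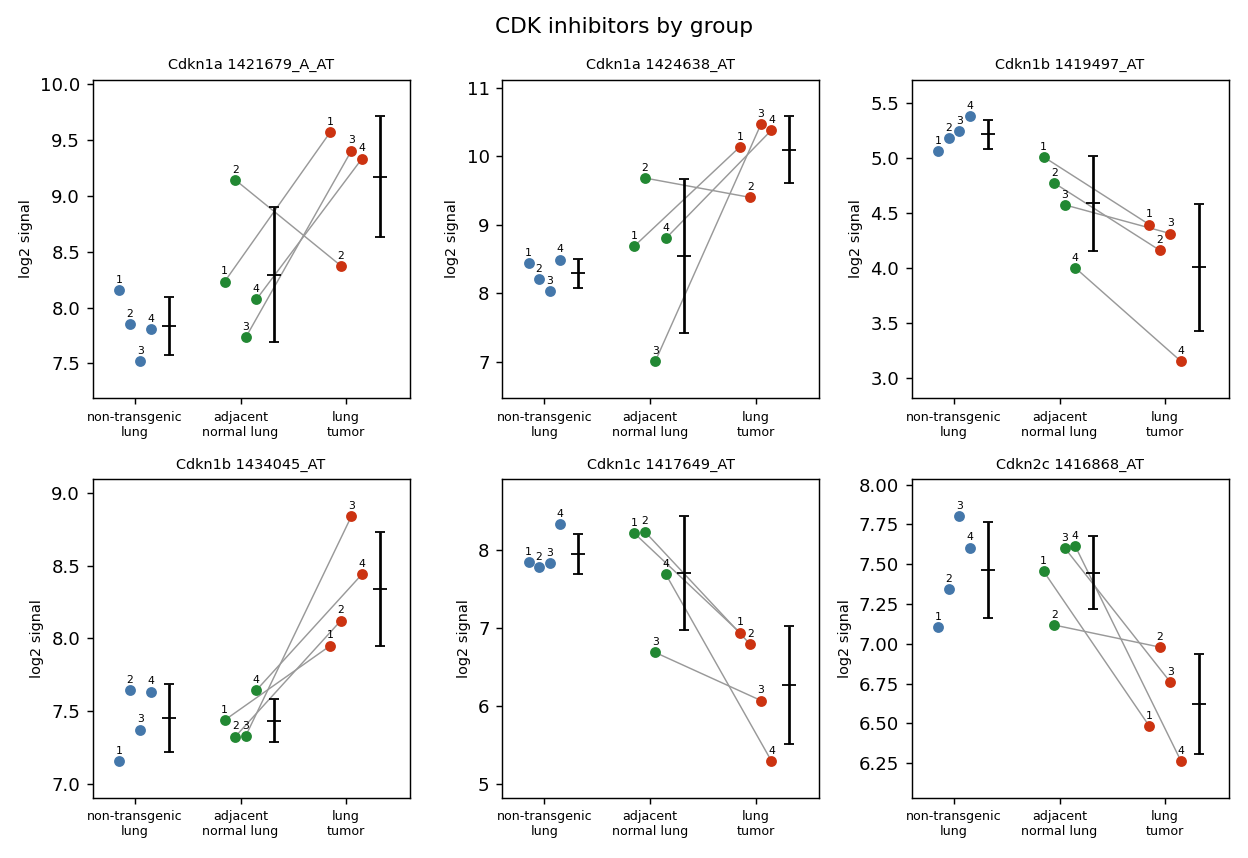
Log2 signal (vertical axes) of the probe sets for the CDK inhibitors in non-transgenic lung (blue), adjacent normal lung (green) and lung tumor (red), each point an array with its replicate number, the bars the mean and SD, and grey lines joining adjacent lung and tumor of the same number. The lines for Cdkn1b 1434045_AT all rise, those for Cdkn1b 1419497_AT, Cdkn1c and Cdkn2c all fall, and the line of number 2 falls in both Cdkn1a panels.

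E2f1, the transcription factor released when the retinoblastoma protein is phosphorylated, differed little. E2f1 1417878_AT was at 5.02, 4.71, 4.83 and 4.81 in non-transgenic lungs, at 4.99, 4.55, 5.23 and 5.16 in adjacent normal lungs and at 5.01, 5.34, 5.20 and 5.22 in tumors. The tumors overlapped with both kinds of lung. E2f1 1431875_A_AT was at 4.84, 4.70, 4.56 and 4.61 in non-transgenic lungs, at 4.89, 4.39, 5.05 and 4.89 in adjacent normal lungs and at 5.01, 5.17, 4.94 and 5.02 in tumors. Its tumors lay above the non-transgenic lungs but not above all adjacent lungs. The differences of tumors from non-transgenic lung were 0.35 and 0.36 (standard errors 0.16 and 0.15, limma adjusted p = 0.108 and 0.0845) and those from adjacent normal lung 0.21 and 0.23 (standard errors 0.16 and 0.15, limma adjusted p = 0.324 and 0.264). Under quantile normalization both probe sets passed against non-transgenic lung, at 0.42 and 0.43 (limma adjusted p = 0.0498 and 0.0303), and with median centring also (0.42 and 0.43, limma adjusted p = 0.0424 and 0.03). Together with Ccne1 1416492_AT this made 6 probe sets higher and 11 lower in place of 3 and 11, while 16.6% of all probe sets were higher and 16.1% lower after quantile normalization and 20.1% and 15.1% after median centring.

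**Figure D5:**
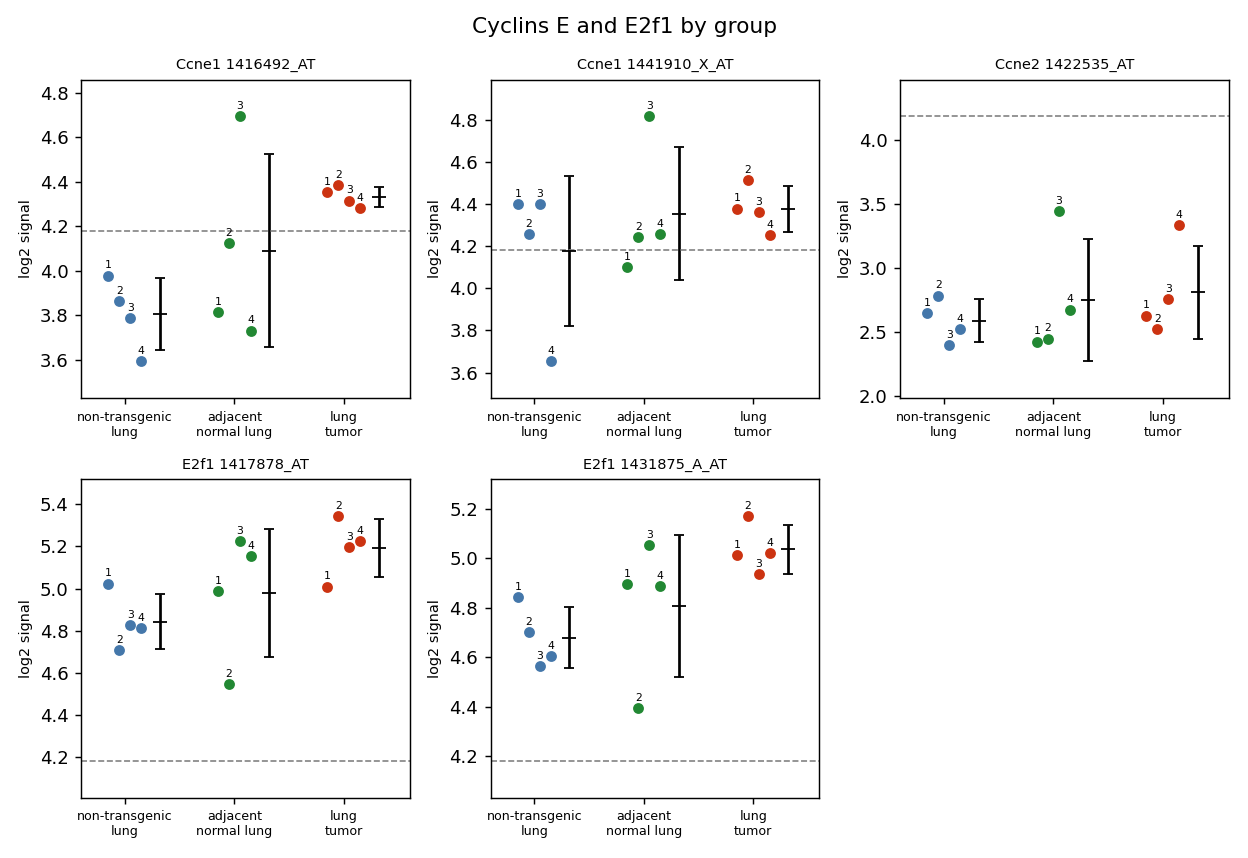
Log2 signal (vertical axes) of the Ccne1, Ccne2 and E2f1 probe sets by group, each point an array with its replicate number and the bars the mean and SD. The dashed line is the table's median of 4.18, under which Ccne2 lies on every array and near which Ccne1 lies.

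The lungs with and without the transgene differed in none of these probe sets at the adjusted threshold, as in 0% of the 23538 tested. At an unadjusted p under 0.05, limma gave 3 of the 20 (3.55% of all tested) and the unequal-variance test of the methods 4 (5.54% of all), with 0 after adjustment in either. All 3 were lower in the transgenic lung. Ccnd2 1448229_S_AT differed by -0.86 (standard error 0.30, limma unadjusted p = 0.014) and Ccnd2 1416123_AT by -0.56 (standard error 0.23, limma unadjusted p = 0.034). Cdkn1b 1419497_AT differed by -0.63 (standard error 0.27, limma unadjusted p = 0.0416) and was the only probe set of these 3 whose 4 adjacent lungs all lay below the 4 non-transgenic lungs. The Ccne1 probe sets differed by 0.29 and 0.18 (standard errors 0.19 and 0.20), and adjacent normal lung 3 was the highest array of both. The spread in this fit is taken from all 3 groups, and with 4 arrays in each a difference of this size could have been missed.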

How the data were processed

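For 12 Affymetrix arrays the log2 signals deposited by the authors, from 1.50 to 14.51, were already background corrected and normalized between arrays. Robust Multichip Average (GeneSifter) is given in the methods, but GCRMA in the submitters' notes on processing, and the table does not tell them apart. The table has no detection calls, and 0 of its columns belonged to other samples. Genes were named from the list that defined the members. The other pathway and cell type lists were not analysed here, because no table pairing other probe sets with genes was used. The members and lists were chosen with earlier results of these data known. All 22 probe sets are described, each on its own.

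Probe sets above 4.18 in at least 4 arrays were fitted with limma 3.58.1 (lmFit and eBayes) in R 4.3.3 over 3 groups with no block, with Benjamini-Hochberg adjustment over 23538 probe sets. The script was tested on simulated data. The labels give tumors and adjacent lungs the same numbers and consecutive tissue codes, which imply 1 mouse for each number, while the methods speak of independent samples. Within the 4 pairs, departures from the mean of the group had correlations of -0.03, 0.10, 0.07 and 0.11. Tumor 4 correlated best with the adjacent lung of its own number, but tumors 1, 2 and 3 did so with adjacent lungs 3, 1 and 4. The paired fit is therefore given where it changes a call. A limma p-value sets a difference against the spread between arrays within groups. That spread is pooled over the 3 groups and drawn toward that of the other probe sets tested. Tumor and adjacent arrays that may share a mouse count as independent in the main fit. Alternatives were 2 other filters, quantile normalization, median centring, a floor at 2.81, each array left out, removal of tumor 2 and adjacent normal lung 3, an intensity trend with robust fit, only 8 arrays, the replicate number or mouse as a block, and the tests of the methods. Promoter windows are those of RefSeq in GRCm38.p6.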

Additional observations from a re-analysis of the deposited data

Results flagged for a closer look

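Of the 66 sets of 4 arrays (22 probe sets in 3 groups), 2 held an array set off from the remaining 3 by more than Dixon's limit, which chance alone would exceed in about 1 of 20 sets. Ccnd2 1416122_AT was at 8.81 in adjacent normal lung 2, and the other 3 adjacent normal lungs lay at 8.95 to 8.97. Cdkn1c 1417649_AT was at 8.33 in non-transgenic lung 4, and the other 3 non-transgenic lungs lay at 7.78 to 7.84.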

How the results depend on the processing

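Most counts of probe sets that passed stayed within 1.5 times the main count. Those that did not are listed below, together with some that did. Against adjacent normal lung the 2 higher probe sets became 4 without tumor 2 and adjacent normal lung 3 (24.7% of all tested higher). They became 1 in a fit of the 8 arrays of these groups alone (6.6%) and 1 when that fit had the replicate block (4.28%). With the unequal-variance test of the methods after adjustment they became 0 (0.595%). With 1 array left out they were 1 (without tumor 1, 3 or 4) to 3, while 6.95% to 23% of all were higher. The 10 lower ones became 1 with the unequal-variance test (1.92% of all tested lower) and 8 with the replicate block over 8 arrays (9.67%). They were 8 to 10 with 1 array left out, while 12.1% to 22.1% of all were lower. Against non-transgenic lung the 3 higher became 6 with quantile normalization (16.6% of all), 6 with median centring (20.1%) and 1 with the unequal-variance test (2.06%). The 11 lower became 3 with that test (4.26%), which takes the spread from 8 arrays and shares none between probe sets. The limma fit of the 8 arrays of these groups alone gave 4 higher (11.7%) and 11 lower (15.1%). In the block over all 12 arrays the counts against adjacent normal lung were 2 higher (11.5% of all) and 10 lower (14.7%). Median centring raised the median difference of tumors from adjacent normal lung over all probe sets from 0.07 to 0.18. No difference that passed, in the main analysis or an alternative, changed its direction. Of 1385 recomputed differences of single probe sets, 28 changed sign where none had passed. Dim probe sets (Ccne1, Ccne2 and 2 of Ccnd2) are limited by their signal over background.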
